A study of Mus musculus with 11 samples.

Results

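The genes described here were 10 components of the NF-κB pathway, taken by name from a table of 26283 genes: the 5 subunits *Nfkb1*, *Nfkb2*, *Rel*, *Rela* and *Relb*, the 3 inhibitors *Nfkbia*, *Nfkbie* and *Tnfaip3*, and the 2 kinases *Ikbkb* and *Chuk*. The genes were spread over 8 chromosomes, with *Nfkb2*, *Rela* and *Chuk* all on chromosome 19. All 10 were present in the table and all 10 had enough reads to be tested. RNA came from mammary tumors of 18-week-old C57BL/6 mice in which the MMTV promoter drove both the PyMT oncogene and Cre. In 6 tumors both *Pcbp1* alleles were floxed (PyMT *Pcbp1*–/–), and in 5 tumors both were wild-type (PyMT *Pcbp1*+/+), so that the controls carried the oncogene and Cre as well. MMTV-Cre acts in mammary epithelial cells, whereas whole tumors were sequenced. The comparison between the genotypes asked how the loss of *Pcbp1* altered RNA levels in these tumors.

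NF-κB proteins are dimers of Rel-family subunits that are held inactive in the cytoplasm by IκB proteins. Signals from cytokine and pattern-recognition receptors activate the IκB kinase complex, IκB is then degraded, and the released dimers enter the nucleus and switch on genes of inflammation, survival and their own inhibitors. In the mammary gland the pathway takes part in ductal development and lactation, and it is widely studied in breast cancer.

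The counts summed to between 10543189 and 14092192 per tumor, with a mean of 12831222 in PyMT *Pcbp1*–/– tumors (n = 6) and 11014923 in PyMT *Pcbp1*+/+ tumors (n = 5; two-sided exact permutation test of the means, p = 0.0173). Levels below are the deposited CPM, each count scaled to the total of its tumor. The targeted gene checked the labels: *Pcbp1* stood at 23.0 ± 6.70 CPM (SD, n = 6) against 249 ± 24.4 CPM (SD, n = 5), and its log2 fold change was -3.43 (adjusted p = 4.72e-06, edgeR). The luminal epithelial markers were present in both groups, with a summed level of 1858 ± 294 CPM (SD, n = 6) and 1920 ± 313 CPM (SD, n = 5). In bulk tumors, fewer cells of a type and less RNA per cell cannot be told apart.

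Of the 10 genes, 1 fell in PyMT *Pcbp1*–/– tumors and 0 rose, at an adjusted p under 0.05 in edgeR's quasi-likelihood test over 19232 genes. Over all genes tested, 1.66% fell and 0.608% rose. At an unadjusted p under 0.05, 2 of the 10 were lower and 0 higher, against 10.5% and 8.19% of all genes. DESeq2, and limma-voom with sample quality weights, each called 1 of the 10 lower and 0 higher, against 3.77% and 2.51% of all genes in DESeq2 and 6.19% and 5.03% in weighted limma-voom. The median log2 fold change of the 10 was -0.089, with 7 negative and 3 positive values, against -0.00012 over all genes. The median of the 10 was -0.18 with weighted limma-voom. Over tumors left out it lay between -0.15 (without PyMT *Pcbp1*–/– tumor 5) and -0.059 (without PyMT *Pcbp1*–/– tumor 1). DESeq2 split its calls over all genes differently, 723 lower and 482 higher against 319 and 117 in edgeR.

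The gene that fell was *Ikbkb*, which encodes IKKβ, the catalytic kinase of the canonical pathway. In PyMT *Pcbp1*–/– tumors *Ikbkb* had a lowest value of 72.1, a median of 77.5 and a highest value of 79.9 CPM. In PyMT *Pcbp1*+/+ tumors 1 to 5 it stood at 95.02, 90.5, 92.6, 106 and 98.1 CPM. The gene lies on chromosome 8 (GRCm38 chr8:22659212-22706589, minus strand). Every PyMT *Pcbp1*–/– tumor lay below every PyMT *Pcbp1*+/+ tumor, which was true of 1 of the 10 genes and of 2.02% of all genes tested, while 0 of the 10 lay entirely above, against 1.27%. Mean levels of 76.4 ± 3.20 CPM (SD, n = 6) and 96.5 ± 6.19 CPM (SD, n = 5) gave *Ikbkb* a log2 difference of -0.34 ± 0.07 (SE, 95% interval -0.50 to -0.18, adjusted p = 0.0325, edgeR). The estimate kept its size when tumors were left out, between -0.37 and -0.31, but the call did not. The adjusted p was 0.0633, 0.0878, 0.0690, 0.0690 and 0.0517 without PyMT *Pcbp1*–/– tumor 1, 3, 4, 5 or 6, and 0.0884, 0.0926 and 0.0644 without PyMT *Pcbp1*+/+ tumor 3, 4 or 5. It was 0.0592 with no filter on low counts.

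**Figure D1:**
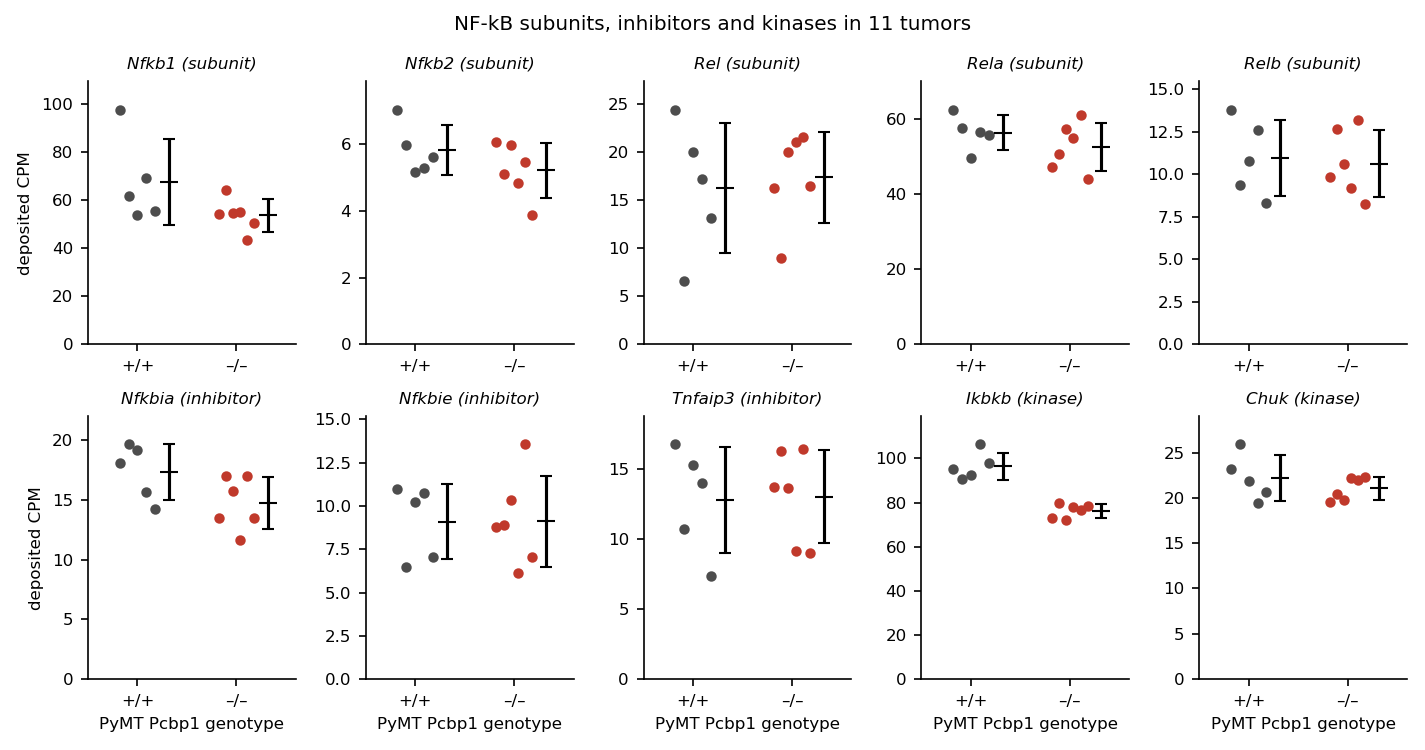
Deposited CPM (vertical axes, from 0) of the 10 genes in each PyMT *Pcbp1*+/+ (grey, n = 5) and PyMT *Pcbp1*–/– (red, n = 6) tumor, with the mean and SD as a black bar. *Ikbkb* is the gene whose groups do not overlap, with PyMT *Pcbp1*–/– tumors between 72.1 and 79.9 CPM and PyMT *Pcbp1*+/+ tumors from 90.5 CPM upward.

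*Chuk* encodes IKKα, the partner kinase of IKKβ and the main kinase of the alternative pathway. Its level ranged from 19.6 to 22.3 CPM in PyMT *Pcbp1*–/– tumors and from 19.4 to 25.9 CPM in PyMT *Pcbp1*+/+ tumors, so the groups overlapped. Its log2 fold change was -0.08 (95% interval -0.29 to 0.13, adjusted p = 0.705, edgeR), and it was -0.02, -0.05 and -0.14 without PyMT *Pcbp1*+/+ tumor 2, 3 or 4. For *Ikbkg*, which encodes the regulatory subunit NEMO, the log2 fold change was -0.15 (edgeR, adjusted p = 0.320). Within each tumor the log2 ratio of *Ikbkb* to *Chuk* was 1.86 ± 0.06 (SD, n = 6) and 2.12 ± 0.24 (SD, n = 5), and the groups overlapped through PyMT *Pcbp1*+/+ tumor 2. That of *Ikbkb* to *Ikbkg* was 0.65 ± 0.04 (SD, n = 6) and 0.84 ± 0.17 (SD, n = 5), again with overlap. Of such ratios 4 were computed, all chosen after the fold changes were seen and therefore given without a test.

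Among the subunits, 0 of 5 passed the test, 4 had negative and 1 had positive log2 fold changes, and the median was -0.099. *Nfkb1* encodes p105, the precursor of p50. It had a lowest value of 43.2, a median of 54.4 and a highest value of 64.2 CPM in PyMT *Pcbp1*–/– tumors and stood at 97.6, 61.8, 53.8, 69.2 and 55.4 CPM in PyMT *Pcbp1*+/+ tumors 1 to 5. PyMT *Pcbp1*+/+ tumor 1 was the highest of all, and the groups overlapped. The log2 fold change was -0.32 ± 0.13 (SE, 95% interval -0.60 to -0.04), with an unadjusted p of 0.0265 and an adjusted p of 0.202 in edgeR, and it was -0.18 without PyMT *Pcbp1*+/+ tumor 1.

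*Rela* encodes p65, the subunit that carries the transactivation domain of the classical dimer. It ranged from 44.1 to 61.2 CPM in PyMT *Pcbp1*–/– tumors and from 49.7 to 62.6 CPM in PyMT *Pcbp1*+/+ tumors, with a log2 fold change of -0.10 (95% interval -0.31 to 0.11). *Nfkb2*, the precursor of p52, had a log2 fold change of -0.16 (95% interval -0.46 to 0.14), and *Relb*, the usual partner of p52, had -0.04 (95% interval -0.36 to 0.29). These values moved with weighted limma-voom, to -0.04 for *Rela*, -0.12 for *Nfkb2* and -0.16 for *Relb*, and when single tumors were left out. *Rela* was at -0.06, -0.15 and -0.06 without PyMT *Pcbp1*–/– tumor 1, 5 or 6, *Nfkb2* at -0.09 without PyMT *Pcbp1*–/– tumor 6, and *Relb* between -0.12 (without PyMT *Pcbp1*–/– tumor 5) and 0.03 (without PyMT *Pcbp1*+/+ tumor 1). *Rel*, which encodes the lymphoid-enriched subunit c-Rel, was the member with the widest span over the 11 tumors. It ran from 6.54 CPM in PyMT *Pcbp1*+/+ tumor 2 to 24.4 CPM in PyMT *Pcbp1*+/+ tumor 1, a 3.73-fold span, and its interval of -0.54 to 0.75 left its direction unresolved, with -0.10 without PyMT *Pcbp1*+/+ tumor 2 and 0.26 without PyMT *Pcbp1*+/+ tumor 1. For comparison, *Ikbkb* spanned 1.48-fold and *Chuk* 1.33-fold over the 11 tumors.

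Of the inhibitors, 0 of 3 passed the test. *Nfkbia* encodes IκBα, which retains dimers in the cytoplasm and is itself an NF-κB target. Its values were 13.5, 17.0, 15.7, 11.6, 17.0 and 13.5 CPM in PyMT *Pcbp1*–/– tumors 1 to 6 and 18.1, 19.6, 19.2, 15.7 and 14.2 CPM in PyMT *Pcbp1*+/+ tumors 1 to 5. The 3 highest tumors were all PyMT *Pcbp1*+/+, and the groups overlapped. The log2 fold change was -0.24 ± 0.13 (SE, 95% interval -0.52 to 0.04, adjusted p = 0.344, edgeR). *Nfkbie*, which encodes IκBε, and *Tnfaip3*, which encodes the ubiquitin-editing enzyme A20, had log2 fold changes of 0.01 (95% interval -0.45 to 0.47) and 0.03 (95% interval -0.45 to 0.50). Both intervals admit changes of either sign, and both signs turned when single tumors were left out, between -0.15 and 0.10 for *Nfkbie* and between -0.10 and 0.14 for *Tnfaip3*. The sign of *Nfkbie* turned with upper-quartile scaling as well.

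Levels were compared between genes after division by transcript length, in CPM per kb. The lengths came from a later annotation, and a length was used only where the transcript model was at most 5% longer than the deposited gene, a limit set after the model of *Nfkb2* was seen, which left out *Nfkb2*, *Relb* and *Tnfaip3*. Over the 11 tumors *Ikbkb* was the highest of the other 7, at 23.8 ± 3.19 CPM per kb (SD), and *Rel* the lowest, at 2.17 ± 0.705 CPM per kb (SD). Between them stood *Rela* at 20.01, *Nfkb1* at 12.8, *Nfkbia* at 10.1, *Chuk* at 6.15 and *Nfkbie* at 3.71 CPM per kb. *Chuk* and *Nfkbie* were the only neighbours in this order whose ranges did not overlap. *Ikbkb* exceeded *Rela* in 9 of 11 tumors. The order of the 7 mean levels was the same in both genotypes.

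Variation between tumors of the same genotype was compared between members. After the group means were taken off log2 CPM, 45 pairs of members were correlated over the 11 tumors, and each p came from an exact permutation within the genotypes. Of the 45 pairs, 27 had a positive and 18 a negative r, with a median of 0.166, and after adjustment 1 pair passed by r and 0 by rho. *Relb* and *Tnfaip3* had r = 0.905 (p = 0.00066, adjusted p = 0.0297 over 45 pairs) and rho = 0.873 (p = 0.00181, adjusted p = 0.0768). Without the 2 tumors farthest from the median of *Relb*, r was 0.883. *Relb* with *Nfkbie* gave r = 0.833 and rho = 0.755 (exact permutation p = 0.00523 and 0.0157, adjusted p = 0.0785 and 0.207), and *Nfkbie* with *Tnfaip3* gave r = 0.816 and rho = 0.836 (exact permutation p = 0.00368 and 0.00341, adjusted p = 0.0785 and 0.0768). Without the 2 farthest tumors these were r = 0.752 and 0.778. The strongest opposite pair was *Nfkb2* with *Ikbkb*, r = -0.638 and rho = -0.609 (exact permutation p = 0.0221 and 0.0207, adjusted p = 0.249 and 0.207), with r = -0.670 without the 2 farthest tumors. The pair *Relb* and *Tnfaip3* passed the adjustment by r and did not pass by rho.

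**Figure D2:**
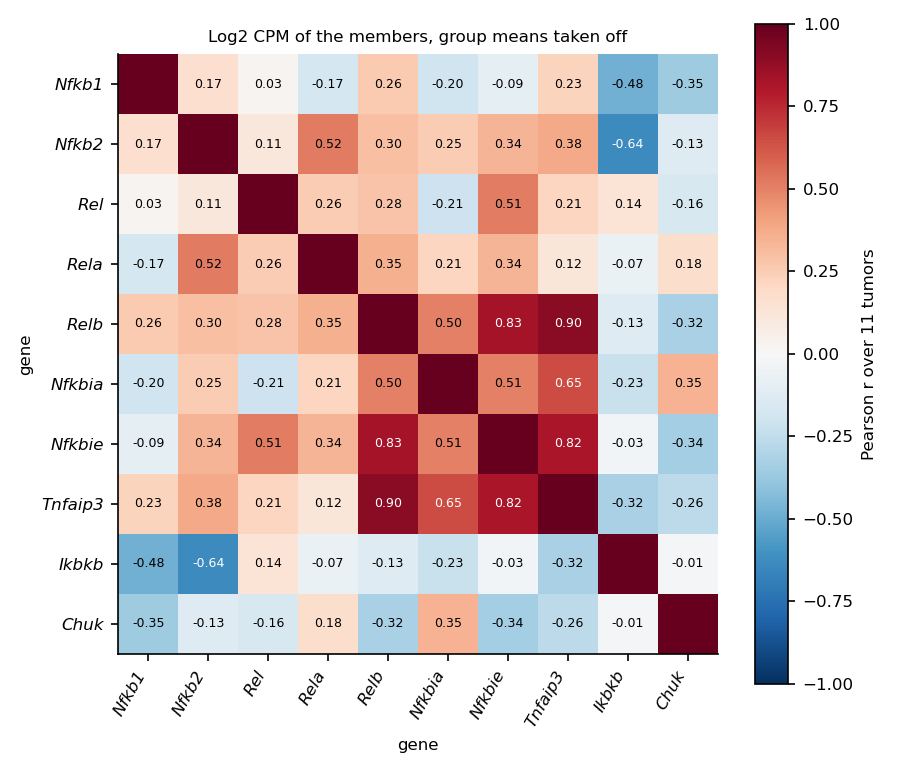
Pearson r over 11 tumors for each pair of members (both axes are genes; color from -1 to 1), on log2 CPM with the group means taken off. *Relb*, *Nfkbie* and *Tnfaip3* form the block of highest values, from 0.816 to 0.905.

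By a search over 13480 protein-coding genes, the gene closest to each member over the 11 tumors, group means taken off, was recorded as a description. *Rel* was closest to *Jun*, an AP-1 subunit (r = 0.951), *Nfkbie* to the complement gene *C3* (r = 0.910), *Tnfaip3* to the acetyltransferase gene *Ep300* (r = 0.912) and *Relb* to *Sft2d3* (r = 0.937). *Nfkb1* was closest to the zinc transporter gene *Slc30a1* (r = 0.966), *Nfkb2* to *Raly* (r = 0.953) and *Rela* to the kinase gene *Dyrk1a* (r = 0.941). *Ikbkb* was closest to the importin gene *Ipo8* (r = 0.943), *Chuk* to *Blvra* (r = 0.936) and *Nfkbia* to *Faf1* (r = 0.872). Without the 2 tumors farthest from the median of the member, r was 0.801 for *Rel* and *Jun*, 0.837 for *Nfkbie* and *C3*, 0.847 for *Nfkb2* and *Raly*, 0.885 for *Nfkb1* and *Slc30a1*, and 0.897 to 0.947 for the other 6. Each r is the largest of 13480 and carries no p.

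The κB consensus, a motif of 10 letters, was searched on both strands of promoter windows from RefSeq (GRCm38.p6; 250 bases before and 50 after a gene start). Windows were matched for 7 of the 10 members, and 5 of the 7 held the motif, compared with 5.14% of 27025 genes and with 9 of 23 genes in the list of target genes. These were *Nfkb2*, *Rel*, *Nfkbia*, *Nfkbie* and *Tnfaip3*, while the windows of *Rela* and *Chuk* did not hold these letters. A match is a description and not a measured binding site. The stretches below show the match in capitals, with 8 flanking bases on each side, so that the letters found in each member can be compared.
Nfkbie, chr17:45555586-45555611, plus strand: agcaaacaGGGGGATTCCggaggggc
Tnfaip3, chr10:19015518-19015543, minus strand: ctcacgcgGGGACACCCCggggcggg
Tnfaip3, chr10:19015405-19015430, minus strand: tttccatcGGAAATCCCCctgttggc
Nfkbia, chr12:55492659-55492684, minus strand: actggcttGGAAATTCCCcgcgcctg
Rel, chr11:23771043-23771069, minus strand: taagcagcGGGAAATCCCCccccctcc
Nfkb2, chr19:46304690-46304716, plus strand: atcgtcacGGGAATTCCCCccctcggg
In *Rel* and in this stretch of *Nfkb2*, 2 overlapping matches are joined. *Nfkb2* held matches at 4 places over 3 windows, of which the place with joined matches is shown.

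The wider pathway was described with 101 other genes in 6 lists, of which 98 were in the table and 89 were tested. Of the 89, 3 fell and 0 rose (edgeR), against 1.66% and 0.608% of all genes. At an unadjusted p under 0.05, 12 were lower and 4 higher, against 10.5% and 8.19% of all genes. Their median log2 fold change was -0.065, with 55 negative and 34 positive values. Over tumors left out, this median lay between -0.095 (without PyMT *Pcbp1*+/+ tumor 2) and -0.019 (without PyMT *Pcbp1*+/+ tumor 3). DESeq2 called 5 of these genes lower and 0 higher, where it called 3.77% and 2.51% of all genes, while 8 were lower and 2 higher in weighted limma-voom, where it called 6.19% and 5.03%.

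Both genes of the ubiquitin machinery that fell encode parts of LUBAC, the ligase that builds linear ubiquitin chains on NEMO. *Rnf31*, which encodes the catalytic subunit HOIP, had a lowest value of 13.98, a median of 16.6 and a highest value of 17.9 CPM in PyMT *Pcbp1*–/– tumors, and stood at 24.7, 28.4, 30.8, 26.0 and 22.2 CPM in PyMT *Pcbp1*+/+ tumors 1 to 5. The groups did not overlap. Its log2 fold change was -0.70 ± 0.11 (SE, adjusted p = 0.00743, edgeR). *Rnf31* shares 123 bases at its end with *Irf9* on the same strand (chromosome 14), and *Irf9* fell as well, with a log2 fold change of -0.85 (adjusted p = 0.0254, edgeR), so reads in the shared stretch could belong to either gene.

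*Rbck1*, which encodes HOIL-1, had a lowest value of 30.1, a median of 32.7 and a highest value of 40.1 CPM in PyMT *Pcbp1*–/– tumors, and stood at 54.8, 58.8, 50.9, 48.2 and 39.8 CPM in PyMT *Pcbp1*+/+ tumors 1 to 5. Only PyMT *Pcbp1*–/– tumor 1 and PyMT *Pcbp1*+/+ tumor 5 made the groups overlap. Its log2 fold change was -0.60 ± 0.10 (SE, adjusted p = 0.0114, edgeR). *Sharpin*, which encodes the remaining subunit, had a log2 fold change of -0.12 (95% interval -0.35 to 0.10, adjusted p = 0.554, edgeR). The within-tumor log2 ratio to *Sharpin* was -0.40 ± 0.26 and 0.17 ± 0.27 for *Rnf31*, and 0.64 ± 0.13 and 1.10 ± 0.20 for *Rbck1* (SD, n = 6 and n = 5), without overlap between the groups in either.

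Of the target genes, *Bcl2l1*, which encodes the survival protein BCL-XL, fell. It had a lowest value of 72.2, a median of 80.7 and a highest value of 89.1 CPM in PyMT *Pcbp1*–/– tumors, and stood at 137, 118, 88.1, 113 and 100.1 CPM in PyMT *Pcbp1*+/+ tumors 1 to 5. The groups overlapped through PyMT *Pcbp1*+/+ tumor 3. Its log2 fold change was -0.46 ± 0.09 (SE, adjusted p = 0.0196, edgeR), with an adjusted p of 0.0520, 0.0535 and 0.0522 without PyMT *Pcbp1*–/– tumor 3, 4 or 5 and of 0.0559 with library sizes alone.

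The 3 genes lie at chr14:55591708-55603693 (*Rnf31*), chr2:152316334-152332653 (*Rbck1*) and chr2:152780668-152831728 (*Bcl2l1*) in GRCm38. The other genes named by rule, taken from the highest and the lowest of each list, did not pass the test. Among target genes these were *Ccnd1*, which encodes cyclin D1, at 0.60 (95% interval 0.14 to 1.06, adjusted p = 0.155, edgeR), and *Ptgs2*, which encodes cyclooxygenase-2, at -1.08 (95% interval -1.88 to -0.29, adjusted p = 0.141, edgeR). Without PyMT *Pcbp1*+/+ tumor 2, *Ccnd1* stood at 0.84 with an adjusted p of 0.0252 in edgeR. *Ptgs2* was at -0.80 without PyMT *Pcbp1*+/+ tumor 5, at -1.31 without PyMT *Pcbp1*–/– tumor 4 and at -0.69 with weighted limma-voom. Receptors ran from -0.32 for *Tnfrsf12a* (95% interval -0.93 to 0.30, adjusted p = 0.588, edgeR), which stood at -0.09 without PyMT *Pcbp1*+/+ tumor 5 and at -0.49 without PyMT *Pcbp1*–/– tumor 5, to 0.87 for *Tnfrsf1b*, which encodes TNF receptor 2 (95% interval 0.10 to 1.63, adjusted p = 0.211, edgeR). Ligands ran from -0.59 for *Il1b* to 0.07 for *Tnf*, which lay between -0.25 and 0.25 over tumors left out. Among adaptors *Ripk2* stood at 0.79. Kinases ran from -0.32 for *Map3k8* to 0.20 for *Tab1*. The list of inhibitors and deubiquitinases ran from -0.36 for *Nfkbiz* to 0.36 for *Tnip3*. *Tnip3* stood at 1.21 without PyMT *Pcbp1*+/+ tumor 1 and at 0.12 and 0.16 without PyMT *Pcbp1*+/+ tumor 2 or 5. Its lowest value was 0.379 CPM, a count of 4, in PyMT *Pcbp1*+/+ tumor 2.

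**Figure D3:**
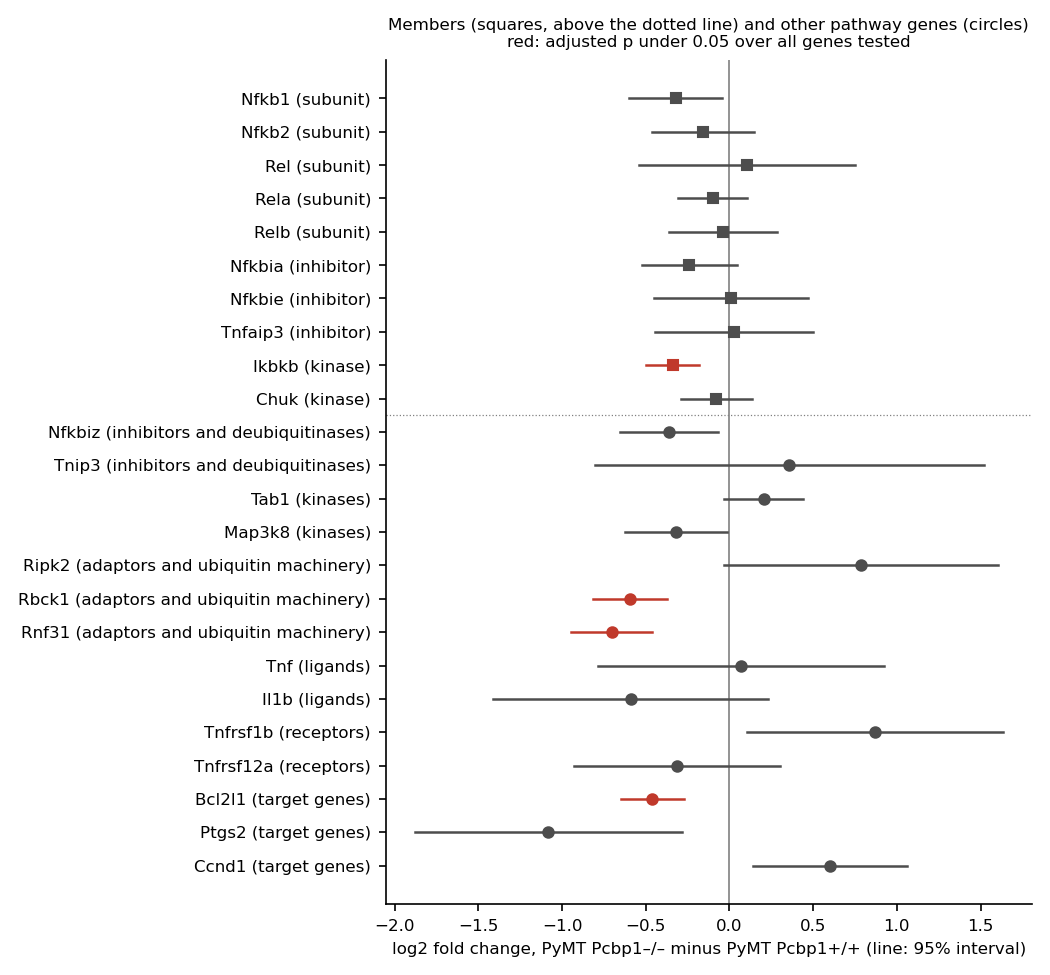
Log2 fold change, PyMT *Pcbp1*–/– minus PyMT *Pcbp1*+/+ (horizontal axis), with its 95% interval, for the 10 members (squares) and the other pathway genes named (circles). Red marks an adjusted p under 0.05 over all genes tested, which holds for *Ikbkb* at -0.34, *Rnf31* at -0.70, *Rbck1* at -0.60 and *Bcl2l1* at -0.46.

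Markers of other cells were measured in the same tumors. In edgeR's test 0 markers of 11 lists passed. The dividing-cell genes had 10 of 10 positive log2 fold changes with a median of 0.45. Of these, 6 were higher at an unadjusted p under 0.05 in edgeR, against 8.19% of all genes tested. They summed to between 483 and 757 CPM in PyMT *Pcbp1*–/– tumors and between 361 and 575 CPM in PyMT *Pcbp1*+/+ tumors, with *Mki67* the most abundant. The macrophage genes had 9 of 9 positive values with a median of 0.25, and summed to between 315 and 605 CPM against 198 and 437 CPM, with *Lyz2* the most abundant. *Lyz2* itself averaged 193 and 94.4 CPM, a log2 fold change of 1.02 (adjusted p = 0.0657, edgeR), while *Csf1r* stood at 0.23 and *C1qa*, *C1qb* and *C1qc* at 0.19, 0.16 and 0.19. In either list, 0 genes were at 0 CPM in any tumor. The part of either in the values of *Ikbkb*, *Rnf31*, *Rbck1* and *Bcl2l1* was not tested. The endothelial genes were 6 of 6 negative (median -0.22), the adipocyte genes 5 of 5 negative (median -0.80), and the fibroblast genes 6 of 7 positive (median 0.29). Basal epithelial genes had a median of 0.05 over values of both signs, from -2.42 for *Krt14* (95% interval -4.30 to -0.54, adjusted p = 0.160, edgeR), which stood at 277 CPM in PyMT *Pcbp1*+/+ tumor 2, to 0.51 for *Krt5*, and summed to 361 and 399 CPM on average. The median was -0.07 in luminal epithelial genes, -0.10 in T cell genes (4 tested), -0.38 in dendritic cell genes (5 tested) and -0.34 in neutrophil genes (1 tested), and 0 B cell genes passed the filter on low counts.

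Each tumor was left out of the marker lists in turn, a step added after the values were seen. Without PyMT *Pcbp1*+/+ tumor 3, the adipocyte genes were 5 of 5 positive (median 0.58) and summed to 10.7 and 7.12 CPM on average, so their direction turned. Over the other tumors left out, the adipocyte median lay between -1.49 and -0.54. Without PyMT *Pcbp1*+/+ tumor 1, the basal genes had a median of 0.74 (between -0.19 and 0.22 over the other tumors left out), with *Krt5* at 2.08, and summed to 361 and 268 CPM, and without PyMT *Pcbp1*+/+ tumor 2 *Krt14* stood at -0.60. The fibroblast median was 0.13 without PyMT *Pcbp1*–/– tumor 6, where *Lum* turned to -0.25, 0.17 without PyMT *Pcbp1*–/– tumor 2 and 0.14 without PyMT *Pcbp1*+/+ tumor 1. It was 0.44 without PyMT *Pcbp1*–/– tumor 5. The macrophage median was 0.15 without PyMT *Pcbp1*–/– tumor 1, 0.13 without PyMT *Pcbp1*+/+ tumor 5 and 0.39 without PyMT *Pcbp1*+/+ tumor 3. Without PyMT *Pcbp1*–/– tumor 1, *C1qa*, *C1qb* and *C1qc* stood at 0.02, 0.02 and 0.03. They stood at 0.37, 0.33 and 0.36 without PyMT *Pcbp1*+/+ tumor 3. *Csf1r* stood at 0.12 without PyMT *Pcbp1*+/+ tumor 2 and at 0.39 without PyMT *Pcbp1*+/+ tumor 3. The dendritic cell median was -0.20 without PyMT *Pcbp1*–/– tumor 1 and -0.04 without PyMT *Pcbp1*+/+ tumor 3. Medians of the endothelial genes (between -0.29 and -0.15) and of the dividing-cell genes (between 0.33 and 0.555) kept their sign. Single genes did not: 7 of 10 dividing-cell genes were positive without PyMT *Pcbp1*+/+ tumor 1, and 5 of 6 endothelial genes were negative without PyMT *Pcbp1*+/+ tumor 4. Medians of the luminal genes (between -0.14 and 0.02) and of the T cell genes (between -0.26 and 0.01) turned sign, and the neutrophil gene lay between -0.54 and -0.09. By edgeR's test *Lyz2* passed without PyMT *Pcbp1*+/+ tumor 3, *Cdk1* without PyMT *Pcbp1*–/– tumor 1 or PyMT *Pcbp1*+/+ tumor 2, and *Mki67* without PyMT *Pcbp1*–/– tumor 1.

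Overlapping genes were also examined. An antisense gene inside *Ikbkb* stood at 0.119 and 0.125 CPM on average in the 2 groups, and was not tested. A gene of unknown status inside *Nfkb1*, on the same strand, stood at 15.3 and 19.9 CPM with a log2 fold change of -0.38 (adjusted p = 0.288, edgeR), and reads shared with *Nfkb1* could not be told apart.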

How the data were processed

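RNA of 11 tumors was analysed, 6 PyMT *Pcbp1*–/– and 5 PyMT *Pcbp1*+/+, in groups taken from the labels. The labels give all tumors the same batch date. The authors checked paired-end reads with FastQC, aligned them to GRCm38 with Bowtie2, and quantified genes in Partek Flow. The annotation version and counting settings are not given in the sources used here. The authors deposited estimated counts per gene, of which 18.1 to 19.8% per tumor were not whole, and CPM, each estimated count scaled to the sum of its column. A count of 3 corresponds to between 0.213 and 0.284 CPM.

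Counts were rounded and tested with edgeR 4.0.16 (filterByExpr, TMM, quasi-likelihood), genotype alone, with Benjamini-Hochberg adjustment over 19232 genes. Standard errors and 95% intervals came from the F statistic. The code was tested on simulated data. DESeq2, limma-voom with sample quality weights (not run without them), other scalings, other filters, protein-coding genes only, a replicate block and leaving out each tumor were alternatives, 19 in all. The nearest-gene search used genes with a mean of at least 1 CPM. Pathway genes named are those called, and the highest and lowest of each list with a mean of at least 1 CPM. *Ikbkg*, *Sharpin* and *Irf9* were added after values were seen. A result that the rule names is not reported here. The members and lists were chosen with earlier results of these data known. That tumors came from separate animals is not stated in the labels, and p-values measure the spread between tumors.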

Additional observations from a re-analysis of the deposited data

Results flagged for a closer look

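Of 52 groups of tumors examined (25 genes and the total count, 2 groups each), 2 held a tumor far from the others, and about 1 in 20 is flagged by chance. *Rbck1* stood at 40.1 CPM in PyMT *Pcbp1*–/– tumor 1, against 33.5 CPM in the next tumor of the group. *Tnip3* stood at 4.20 CPM in PyMT *Pcbp1*+/+ tumor 1, against 1.09 CPM in the next. The log2 fold change of *Tnip3* was 0.36, and it was 1.21 without that tumor, 0.12 without PyMT *Pcbp1*+/+ tumor 2 and 0.16 without PyMT *Pcbp1*+/+ tumor 5.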

How the results depend on the processing

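Of 190 values of the 10 members over 19 alternatives, 165 kept their direction and side of the threshold, 10 lost the call and 15 changed sign, all 15 in genes that were not called. Of 284 values of the named pathway genes, 272 kept both, 6 lost and 2 gained the call and 4 changed sign. The changes of sign were in *Nfkbie* (-0.0020 with upper-quartile scaling, -0.22 with weighted limma-voom), *Tnfaip3* (-0.20 with weighted limma-voom), *Relb* (0.0169 with the replicate block) and *Tnf* (-0.0317 with the replicate block), and, over tumors left out, in *Nfkbie* (-0.15 to 0.10), *Tnfaip3* (-0.10 to 0.14), *Relb* (-0.12 to 0.0284), *Rel* (-0.10 to 0.26) and *Tnf* (-0.25 to 0.25). *Rnf31* was called in 19 of 19 alternatives, *Rbck1* in 18, *Bcl2l1* in 14 and *Ikbkb* in 9. Over the alternatives the adjusted p of *Ikbkb* ran from 0.00018 to 0.107, that of *Bcl2l1* from 7.17e-05 to 0.0786 and that of *Ccnd1* from 0.0161 to 0.263.

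Members called lower numbered 0 with no filter on low counts and 0 with the replicate block, and 0 to 1 over tumors left out. All genes called lower and higher were 723 and 482 with DESeq2, 1190 and 968 with weighted limma-voom, and 118 and 42 with the replicate block, and ran from 144 to 389 and from 41 to 187 over tumors left out. Pathway genes called lower were 5 with DESeq2, 8 with weighted limma-voom, 1 with the replicate block (*Rnf31*) and 2 to 4 over tumors left out. Called higher, they were 2 with weighted limma-voom and 0 to 1 over tumors left out. The cause was not tested, and limma-voom changed the test and the weight of each tumor together. With the replicate block the adjusted p was 0.107 for *Ikbkb*, 0.0759 for *Rbck1*, 0.0786 for *Bcl2l1* and 0.0426 for *Rnf31*. The labels do not state whether replicate numbers pair the tumors. Deviations of same-numbered tumors correlated at 0.13, 0.087, -0.079, -0.14 and 0.29, and 2 of 5 matched their own number best. These 5 values are too few to settle whether the numbers pair the tumors. The ratio of mean total counts stayed between 1.14 and 1.19 over tumors left out.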
